A study of Mus musculus with 7 samples.

Results

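The adrenergic and cAMP signalling genes described here are 8 of the 23393 genes with a usable row in the table: the receptors Adrb1, Adra1a and Adra1b, the adenylyl cyclases Adcy5 and Adcy6, the anchoring protein Akap5, and the phosphodiesterases Pde3a and Pde4d. They were picked by name, and the list was chosen with the measured difference between the groups already known, so their values in that contrast are a description and carry no test. RNA of the cardiac ventricle was sequenced from 7 mice, although the tissue label reads whole mouse heart. The 4 control animals were Ctla4+/+;Pdcd1-/- and the 3 animals labelled ICI-myocarditis, a model of heart inflammation caused by immune checkpoint inhibitors (ICI), were Ctla4+/-;Pdcd1-/-. All 7 therefore lacked Pdcd1, which encodes the inhibitory receptor PD-1 of T cells, none was treated, and all were 3 to 6 weeks old. The groups differ in the Ctla4 genotype, Ctla4 being the gene of the checkpoint receptor CTLA-4, and the comparison asks what the ventricle expresses differently once myocarditis is present.

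Noradrenaline from sympathetic nerves and adrenaline from the blood act on the heart through beta receptors, which couple to the stimulatory G protein and raise cAMP through adenylyl cyclase, and through alpha-1 receptors, which couple to Gq and phospholipase C. cAMP activates protein kinase A (PKA), which phosphorylates calcium channels, phospholamban and sarcomere proteins and so raises the rate and force of the beat. A-kinase anchoring proteins hold PKA and its partners at particular places in the cell, and phosphodiesterases break cAMP down and keep its rise local.

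Recovered reads assigned to genes ranged from 20901485 to 38980900 per library, and each of the 8 genes had at least 45 reads in every library. Values are normalized counts, that is, reads divided by 1 size factor per library. A fold change is the difference of ICI-myocarditis from control in log2(normalized count + 1), given with the standard error (SE) of the fit across all genes. The 10 cardiomyocyte markers checked summed to 2552770 to 5137251 normalized counts in controls, lowest in control 2, and to 1917478 to 3010422 in ICI-myocarditis, lowest in ICI-myocarditis 3. All 10 had fold changes below 0, with a median of -0.76, and 0 of 10 were called. A gene is called at a limma adjusted p below 0.05, which 11.7% of all genes tested reached as higher and 4.00% as lower. Summed T cell markers (8 of 8 called higher) were between 140 and 1739 in controls, highest in control 2, and between 7175 and 11056 in ICI-myocarditis. Summed macrophage markers (7 of 8 called higher) were between 11726 and 16096 against 46246 to 69641, endothelial markers (4 of 8 called lower) between 29890 and 76721 against 22053 to 28458, and pericyte and smooth muscle markers (4 of 8 called lower) between 54349 and 74810 against 25106 to 35878. In bulk tissue, fewer cells of a type and less RNA per cell cannot be told apart. The part of these shifts in the values below was not tested, but each gene is also given per cardiomyocyte marker level. Pdcd1 had 9.07, 244, 3.35 and 2.50 normalized counts in controls and 1481, 1096 and 1340 in ICI-myocarditis, and Ctla4 had 29.2, 113, 69.2 and 41.3 against 282, 251 and 373. The deleted part of either gene is not given in the sources used here, so these transcripts did not check the genotype labels.

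All 8 genes passed the filter on low values, and all 8 had a lower fitted level in ICI-myocarditis, with log2 fold changes from -2.69 (Akap5) to -0.27 (Adrb1) and a median of -0.68, beside a median of -0.02 and 51.9% below 0 among the 15236 genes tested. At a limma adjusted p below 0.05, 2 of the 8 (Adra1a and Akap5) were called lower and 0 were called higher. Among all genes 15.7% were called, 11.7% higher and 4.00% lower. For 3 of the 8 (Adra1a, Adcy6 and Akap5) every ICI-myocarditis library lay below every control, as did 11.3% of all genes tested. The authors' deposited table gives an adjusted p below 0.05 to the same 2 genes, Adra1a and Akap5. Since the list was chosen on this contrast, nothing is read from these counts.

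**Figure D1:**
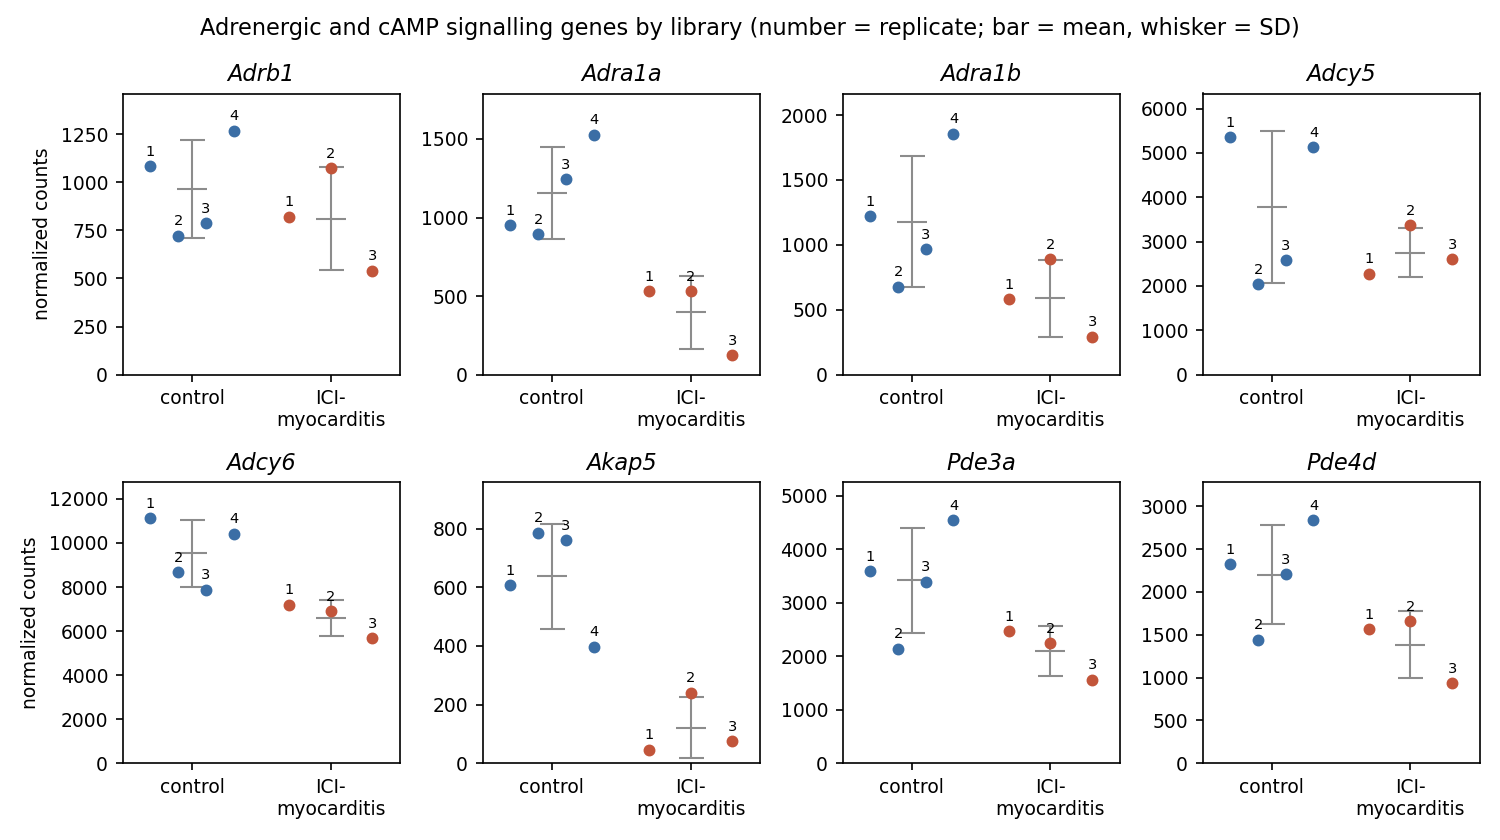
Normalized counts (vertical axis, starting at 0) of each of the 8 genes in the 4 control (blue) and 3 ICI-myocarditis (red) libraries, numbered by replicate, with the group mean (bar) and SD (whisker). Adra1a, Adcy6 and Akap5 show no overlap between groups, and ICI-myocarditis 3 is the lowest of the 7 libraries in 6 of the 8 panels.

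ICI-myocarditis 3 was the lowest of all 7 libraries for 6 of the 8 genes (not Adcy5 or Akap5). Control 2 was the lowest control for 6 and control 4 the highest control for 5. Control 2 was also the control with the least cardiomyocyte marker signal and the most T cell marker signal. Akap5 ran the other way within the controls, highest in control 2 and lowest in control 4.

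Adrb1 encodes the beta-1 receptor, the main beta receptor of cardiomyocytes (chromosome 19, 56722199 to 56733113, plus strand, GRCm38). Its normalized counts were 1083, 723, 788 and 1269 in the controls and 821, 1073 and 540 in ICI-myocarditis. The groups overlapped widely: ICI-myocarditis 1 and 2 lay inside the control range and only ICI-myocarditis 3 lay below it. The means were 966 ± 256 (SD, n = 4) and 811 ± 267 (SD, n = 3), and the log2 fold change was -0.27 (SE 0.288). Without ICI-myocarditis 3 it was -0.0034. Per 1000 counts of the geometric mean of the 10 cardiomyocyte markers, Adrb1 stood at 4.81 ± 0.677 in controls and 6.94 ± 0.832 in ICI-myocarditis, with all 3 ICI-myocarditis libraries above all 4 controls. The direction of Adrb1 thus depended on the scale. Scaling to these markers moved the median log2 fold change of all genes from -0.02 to 0.77, and Adrb1, at 0.53 there, lay below that median. The share of all genes that the marker scale set apart was not counted.

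Adra1a encodes the alpha-1A receptor, a Gq-coupled receptor of cardiomyocytes (chromosome 14, 66635251 to 66771168, plus strand). Normalized counts were 952, 893, 1243 and 1528 in the controls and 532, 530 and 125 in ICI-myocarditis. The groups did not overlap, ICI-myocarditis 1 and 2 were nearly equal, and ICI-myocarditis 3 was far below both. The means were 1154 ± 292 (SD, n = 4) and 396 ± 234 (SD, n = 3), with a log2 fold change of -1.78 (SE 0.480). Without ICI-myocarditis 3 it was -1.08. The call was lost without control 1 (-1.86), control 3 (-1.73) or control 4 (-1.63), with edgeR (-1.55) and after scaling to cardiomyocyte markers (-0.98). Even per 1000 counts of the marker mean the libraries stayed apart, at 5.82 ± 1.20 in controls and 3.17 ± 1.40 in ICI-myocarditis.

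Adra1b encodes the alpha-1B receptor, which also couples to Gq (chromosome 11, 43774606 to 43901210, minus strand). Normalized counts were 1220, 676, 965 and 1855 in the controls and 580, 891 and 291 in ICI-myocarditis. ICI-myocarditis 2 lay above control 2, so the groups overlapped, while the other two ICI-myocarditis libraries were below all controls. The means were 1179 ± 503 (SD, n = 4) and 587 ± 300 (SD, n = 3), and the log2 fold change was -1.05 (SE 0.422). Control 4 held 2.74 times the level of control 2, the largest such ratio of the 8 genes. Per 1000 counts of the marker mean, Adra1b was 5.63 ± 0.714 in controls and 4.85 ± 1.51 in ICI-myocarditis, overlapping.

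The balance between the 3 receptors was read within each library, where size factors cancel. Adra1a over Adrb1 was 1.22 ± 0.285 in controls and 0.458 ± 0.211 in ICI-myocarditis, with no overlap. Adra1a over Adra1b was 0.780, 1.32, 1.29 and 0.823 in controls and 0.917, 0.596 and 0.430 in ICI-myocarditis. Here ICI-myocarditis 1 lay above controls 1 and 4, so the groups overlapped.

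The RefSeq windows before the start of Adrb1 and before 1 of the 2 listed starts of Adra1b are printed to show a receptor start with both motifs marked beside a start with neither, a choice made after the matches were seen. Each run is the 250 bases before an annotated start on GRCm38.p6, chr19:56721867-56722116 on the plus strand for Adrb1 and chr11:43901238-43901487 on the minus strand for the distal start of Adra1b. Capitals mark GC boxes (GGGCGG, bound by Sp1-type factors) and the core of the cAMP response element (TGACG, bound by CREB family factors), searched on both strands, with no overlap between them. E boxes (CANNTG, in 66.2% of all windows of this length) and TATA boxes (TATAAA, in 12.4%) were also searched, and both printed windows hold 0.
Adrb1: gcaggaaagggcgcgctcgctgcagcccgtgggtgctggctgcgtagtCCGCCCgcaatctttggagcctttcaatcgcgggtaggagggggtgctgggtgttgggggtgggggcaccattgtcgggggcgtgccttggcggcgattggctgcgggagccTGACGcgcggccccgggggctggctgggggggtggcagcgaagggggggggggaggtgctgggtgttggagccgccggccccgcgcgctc
Adra1b: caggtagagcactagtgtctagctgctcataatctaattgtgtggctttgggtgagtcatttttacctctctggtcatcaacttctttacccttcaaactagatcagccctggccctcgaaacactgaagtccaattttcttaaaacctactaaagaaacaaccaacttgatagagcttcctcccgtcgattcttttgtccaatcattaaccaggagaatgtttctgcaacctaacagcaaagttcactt
Adrb1 holds 1 GC box and 1 core, 90 bases before its start, at 74% GC, and the distal start of Adra1b holds 0 of either at 41.6% GC. The window before the other start of Adra1b, chr11:43836490-43836739 on the minus strand, holds 1 GC box and 0 cores at 72.8% GC, close to Adrb1 in base content. Of 32851 promoter windows of this length 32.7% hold a GC box, 17.8% the core and 1.55% the full element TGACGTCA, and their median GC content is 52.4%. The window of Akap5 holds 3 GC boxes and 0 cores at 70% GC, but it lies within the span of RefSeq's gene record, which starts earlier, so it may be transcribed rather than upstream. The full element was in none of the 6 windows that 5 of the 8 genes (Akap5, Adrb1, Adra1b, Adcy5 and Pde4d) have in the RefSeq promoter table used here, and promoters of Adra1a, Adcy6 and Pde3a were not analysed here. These matches are descriptions of letters, not of bound sites.

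Adcy5 and Adcy6 encode the closely related, calcium-inhibited adenylyl cyclases that make most cAMP in cardiomyocytes. Adcy5 (chromosome 16, 35154877 to 35305738, plus strand) had normalized counts of 5361, 2042, 2581 and 5128 in the controls and 2281, 3366 and 2602 in ICI-myocarditis. Controls formed a high pair (1 and 4) and a low pair (2 and 3), and all 3 ICI-myocarditis libraries lay within the control range. The means were 3778 ± 1711 (SD, n = 4) and 2750 ± 558 (SD, n = 3), a log2 fold change of -0.35 (SE 0.362).

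Adcy6 (chromosome 15, 98589973 to 98610076, minus strand) had normalized counts of 11129, 8679, 7872 and 10422 in the controls and 7198, 6890 and 5674 in ICI-myocarditis. Every ICI-myocarditis library was below every control, with the narrowest spread of the 8 genes (coefficient of variation 15.8% in controls and 12.2% in ICI-myocarditis). The means were 9526 ± 1508 (SD, n = 4) and 6588 ± 806 (SD, n = 3), a log2 fold change of -0.53 (SE 0.230). Per 1000 counts of the cardiomyocyte marker mean the groups overlapped for both cyclases: Adcy5 was 18.0 ± 4.63 in controls and 24.8 ± 7.43 in ICI-myocarditis, and Adcy6 was 49.3 ± 13.9 and 58.6 ± 10.4. The ratio of Adcy5 to Adcy6 was 0.482, 0.235, 0.328 and 0.492 in controls and 0.317, 0.489 and 0.459 in ICI-myocarditis, overlapping.

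Akap5 encodes AKAP79/150, the anchoring protein that brings PKA, calcineurin and protein kinase C to beta receptors and L-type calcium channels at the membrane (chromosome 12, 76324891 to 76334153, plus strand). Normalized counts were 607, 787, 760 and 398 in the controls and 46.0, 240 and 75.6 in ICI-myocarditis. The groups did not overlap, and ICI-myocarditis 2 stood nearest the controls. The means were 638 ± 179 (SD, n = 4) and 121 ± 104 (SD, n = 3), a log2 fold change of -2.69 (SE 0.506), the lowest of the 8. It was -3.36 without ICI-myocarditis 2 and -1.90 (SE 0.618) after scaling to cardiomyocyte markers. The call was kept in 17 of 18 alternatives and lost in that scaling. Per 1000 counts of the marker mean, Akap5 was 2.75, 6.20, 3.95 and 1.43 in controls and 0.351, 1.76 and 0.937 in ICI-myocarditis, so ICI-myocarditis 2 then lay above control 4.

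Relative to the receptor it is known to bind, Akap5 over Adrb1 was 0.561, 1.09, 0.965 and 0.314 in controls and 0.0561, 0.224 and 0.140 in ICI-myocarditis, with no overlap. Relative to Akap6, the anchoring protein of the cardiomyocyte nuclear envelope, the ratio was 0.0480 ± 0.0242 in controls and 0.0105 ± 0.00738 in ICI-myocarditis, again with no overlap. Among the 4 controls the ratio of Akap5 to Adrb1 was itself uneven, and higher in controls 2 and 3 than in controls 1 and 4.

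Pde3a and Pde4d encode phosphodiesterases of cardiomyocytes: the first is inhibited by cGMP and is the target of milrinone, the second is specific for cAMP and is found with beta receptors and the ryanodine receptor. Pde3a (chromosome 6, 141249269 to 141507448, plus strand) had normalized counts of 3594, 2141, 3393 and 4548 in the controls and 2464, 2243 and 1565 in ICI-myocarditis. ICI-myocarditis 1 and 2 lay above control 2 and below the other controls. The means were 3419 ± 990 (SD, n = 4) and 2090 ± 468 (SD, n = 3), a log2 fold change of -0.69 (SE 0.283).

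Pde4d (chromosome 13, 108449948 to 109953461, plus strand) had normalized counts of 2322, 1441, 2209 and 2838 in the controls and 1567, 1657 and 934 in ICI-myocarditis. The order was that of Pde3a except that ICI-myocarditis 2 passed ICI-myocarditis 1, and the same 2 libraries exceeded control 2. The means were 2202 ± 577 (SD, n = 4) and 1386 ± 394 (SD, n = 3), a log2 fold change of -0.67 (SE 0.286). Both genes were called lower only when control 2 was left out, which gave 4 called members in place of 2.

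Pde4d and Pde3a kept nearly the same proportion in every library, with Pde4d over Pde3a at 0.646, 0.673, 0.651 and 0.624 in controls and 0.636, 0.739 and 0.597 in ICI-myocarditis. The means, 0.648 ± 0.0201 and 0.657 ± 0.0734, differed by less than the spread. Per 1000 counts of the cardiomyocyte marker mean, Pde3a was 16.8 ± 0.636 in controls and 18.2 ± 1.56 in ICI-myocarditis, overlapping. Pde4d was 10.9 ± 0.636 and 11.9 ± 0.293, with every ICI-myocarditis library slightly above every control. Scaled to these markers, its log2 fold change was 0.13, beside a median of 0.77 for all genes.

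**Figure D2:**
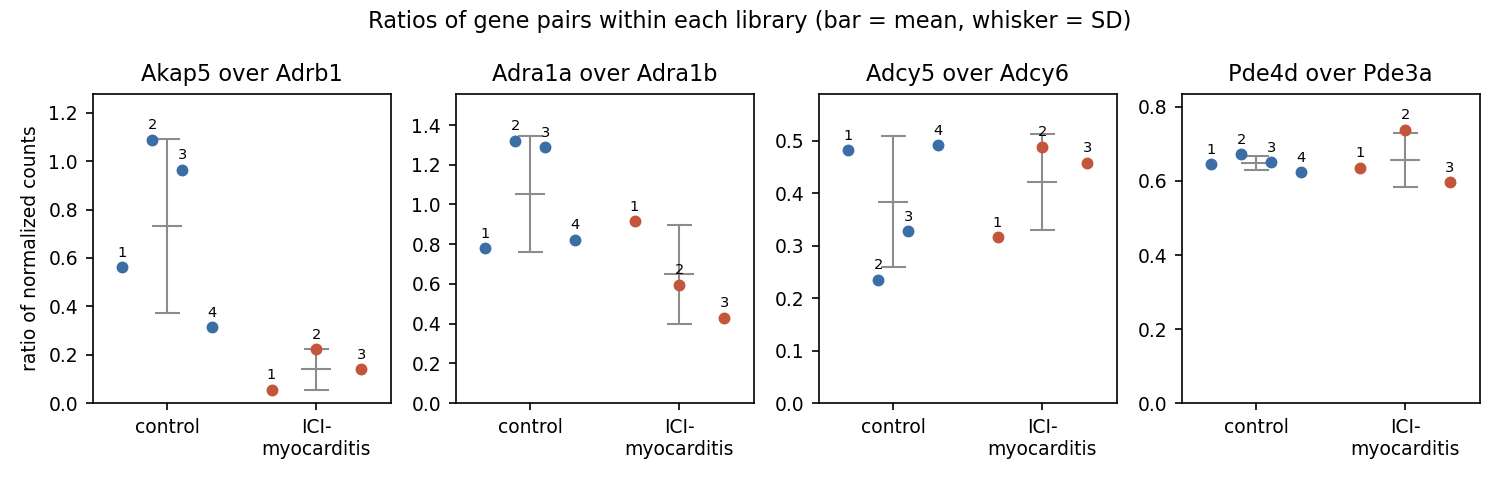
Ratio of normalized counts of 2 genes within each library (vertical axis, starting at 0) for Akap5 over Adrb1, Adra1a over Adra1b, Adcy5 over Adcy6 and Pde4d over Pde3a, with libraries numbered by replicate and the mean (bar) and SD (whisker) of 4 control (blue) and 3 ICI-myocarditis (red) libraries. Akap5 over Adrb1 separates the groups, and the other 3 ratios overlap.

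Scaling each library so that the mean log2 level of the 10 cardiomyocyte markers was equal changed the sign for 5 of the 8 genes. The log2 fold change became 0.53 for Adrb1 (SE 0.285), 0.45 for Adcy5 (SE 0.318), 0.27 for Adcy6 (SE 0.279), 0.12 for Pde3a (SE 0.250) and 0.13 for Pde4d (SE 0.259). It remained below 0 for Adra1a (-0.98, SE 0.397), Adra1b (-0.25, SE 0.313) and Akap5 (-1.90, SE 0.618), and 0 of the 8 were called lower. The median of all genes moved from -0.02 to 0.77 in this scaling, which shifts all genes by nearly the same amount. All 8 genes lay below the median of all genes before and after it, so their place there is not a new result. The other 17 alternatives left all 8 below 0. Those that change the filter or limma's robust option cannot move a fold change, so they do not check the sign.

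**Figure D3:**
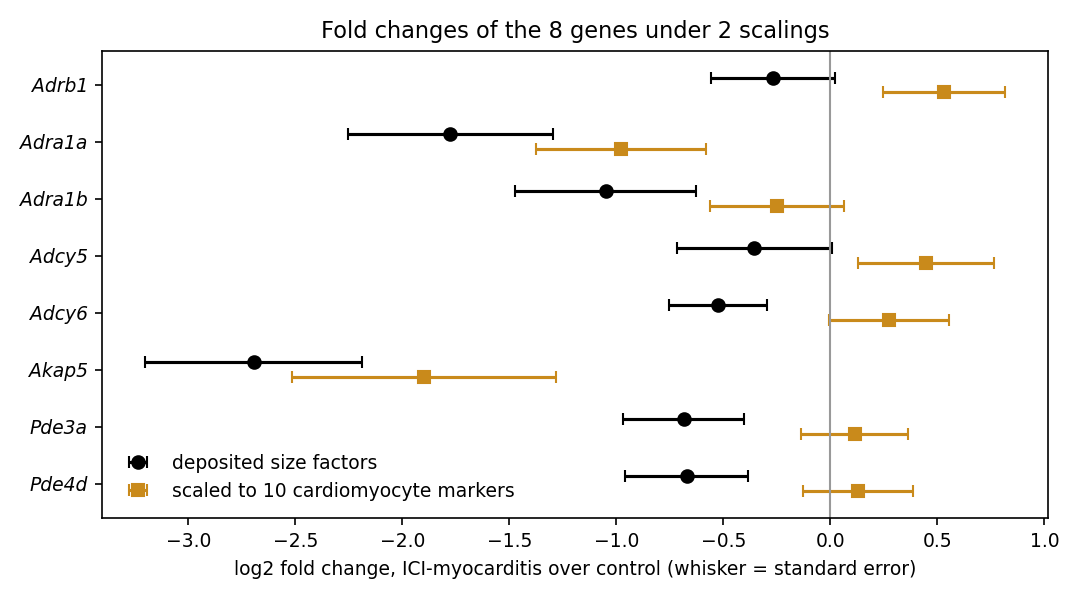
Log2 fold change, ICI-myocarditis over control (horizontal axis; 0 marked), of the 8 genes with the deposited size factors (black circles) and after scaling to 10 cardiomyocyte markers (ochre squares); whiskers are standard errors. All 8 black points are below 0, and after the scaling only Adra1a, Adra1b and Akap5 are.

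Levels between genes were compared per kb of merged exon (GENCODE M21), in normalized counts per kb. In controls the order was Adcy6 (1404 ± 222), Adcy5 (526 ± 238), Adra1b (349 ± 149), Adrb1 (286 ± 75.6), Pde3a (268 ± 77.7), Pde4d (183 ± 48.0), Adra1a (132 ± 33.5) and Akap5 (93.5 ± 26.2). Only the step from Adcy6 to Adcy5 was free of overlap between libraries in controls. Read within each library, Adcy5 was also above Adra1b, Pde3a above Pde4d and Pde4d above Adra1a, in every library of both groups. In ICI-myocarditis the order was Adcy6 (971 ± 119), Adcy5 (383 ± 77.6), Adrb1 (240 ± 78.8), Adra1b (174 ± 88.7), Pde3a (164 ± 36.8), Pde4d (115 ± 32.9), Adra1a (45.4 ± 26.9) and Akap5 (17.7 ± 15.3). Adrb1 and Adra1b traded places, within their spread. Adra1a was now clear of Pde4d as well: its highest library, at 61.0 per kb, lay below the lowest of Pde4d, at 77.8. Adcy5 was barely clear of Adrb1, with its lowest library at 317.46 and the highest of Adrb1 at 317.35. Per kb, Akap5 and Adra1a were thus the lowest of the 8 in both groups. For Adra1a in controls this rests on the exon length used, since its mean normalized count, 1154, was above that of Adrb1, 966. In ICI-myocarditis it was below Adrb1 in normalized counts too, at 396 against 811.

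The profile over the 7 libraries was compared by the root mean square (RMS) difference of centred log2 values. Neighbours were sought among 11341 genes with a mean of at least 100 normalized counts. The 8 genes, the other pathway genes listed below, and predicted or RIKEN-named genes were left out of these. Pde4d and Pde3a were the nearest pair of the 8 (RMS difference 0.0897). Closest to Pde3a were Jph1 (0.0592), which encodes a junctophilin, a tether between the plasma membrane and the sarcoplasmic reticulum, and Abcb10 (0.0636), and closest to Pde4d were Mettl22 (0.0557) and Selrc1 (0.0762). Adcy6 lay nearest Zfp422 (0.0766) and Trim45 (0.0773), Adrb1 nearest Slc41a1 (0.0917), a magnesium transporter, and Poll (0.0950), and Adcy5 nearest Rnf10 (0.0962) and Rsph3b (0.118). Adra1b lay nearest Cyb5rl (0.151) and Lgr6 (0.163), and Adra1a nearest Magix (0.182) and Slc38a3 (0.188), a glutamine transporter. Akap5 had no near neighbour among the genes searched: the closest were Mgl2 (0.427), a macrophage lectin, and Aplnr (0.530), the apelin receptor of endothelium.

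Around these 8 genes, 134 other genes of adrenergic and cAMP signalling were listed by role, and 127 of them were tested. By limma 7 of 127 (5.51%) were called higher and 11 of 127 (8.66%) lower, and 109 passed in neither direction, beside 11.7% and 4.00% of all genes. The counts by role below stand beside the same shares, and with so few genes per role nothing is read from them. Their median log2 fold change was -0.25, against -0.02 for all genes, and 82 of 127 were below 0. After scaling to cardiomyocyte markers 14 were called higher and 1 lower, beside 2712 and 44 of the 15236 genes tested. That scaling moved the median of all genes up to 0.77, so these counts are not read as a rise of the pathway.

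**Figure D4:**
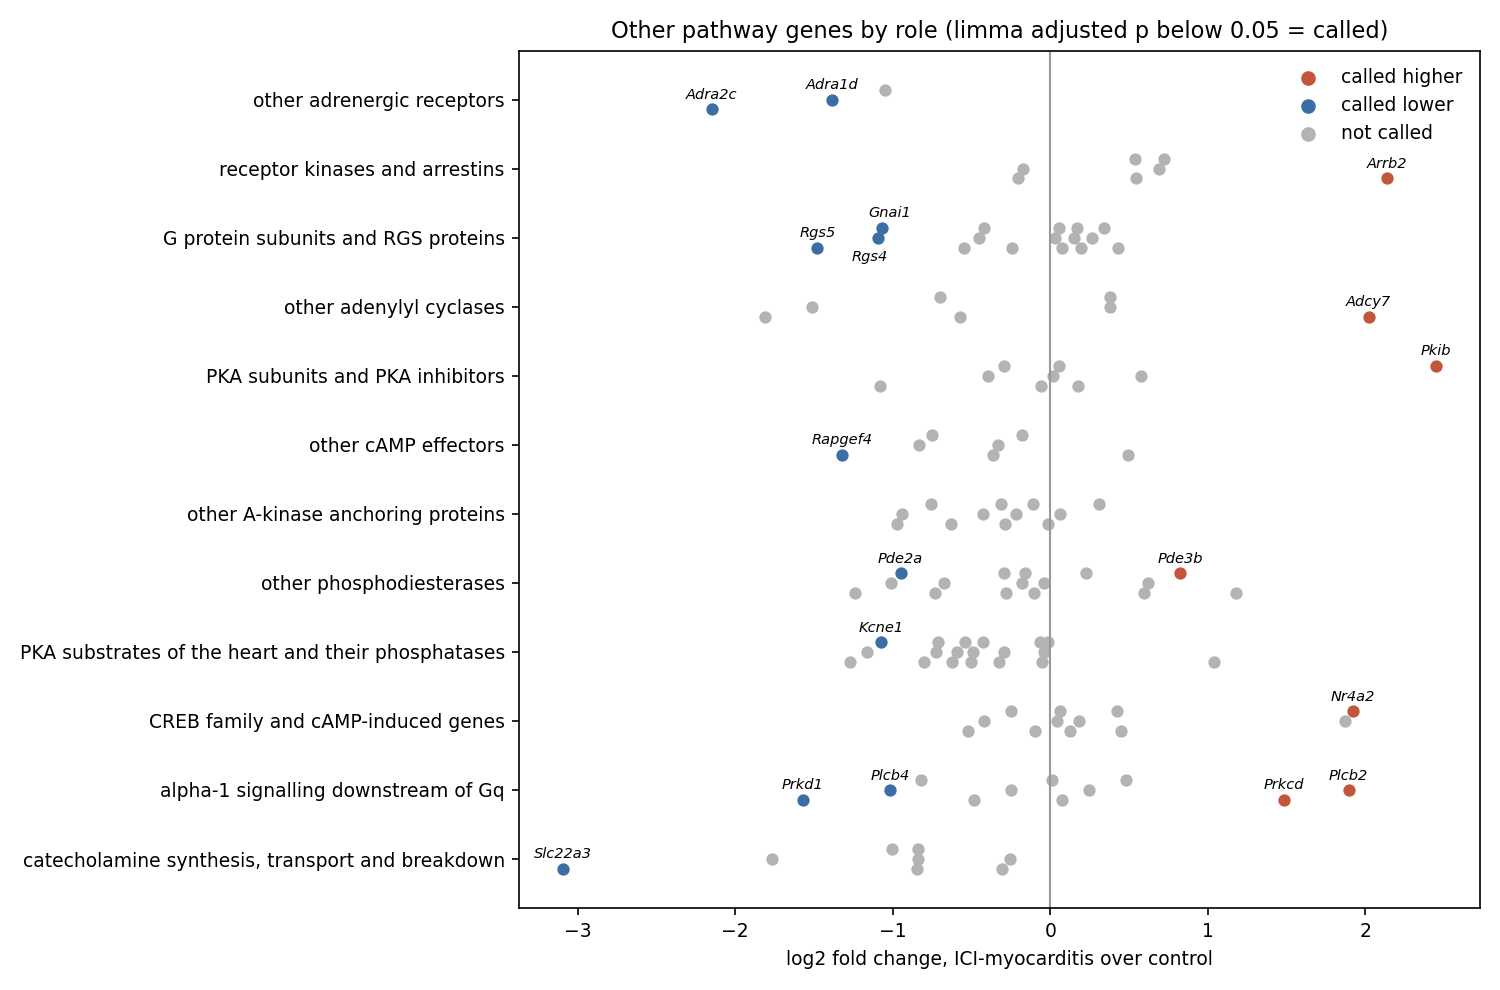
Log2 fold change, ICI-myocarditis over control (horizontal axis), of the 127 tested genes of the pathway outside the 8, by role (rows); each point is a gene, coloured if its limma adjusted p is below 0.05. The 7 genes called higher run from Pde3b (0.83) to Pkib (2.45), and the 11 called lower from Slc22a3 (-3.09) to Pde2a (-0.95).

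Of the other adrenergic receptors, 2 of 3 tested were called lower and 0 higher, beside 4.00% and 11.7% of all genes. Adra1d, the remaining alpha-1 receptor, fell from 254 ± 96.0 to 97.5 ± 42.1 normalized counts (log2 fold change -1.39, limma adjusted p = 0.0464), a call kept in 8 of 18 alternatives and lost without ICI-myocarditis 1 or 3 or controls 1, 3 or 4 (adjusted p 0.0582 to 0.179). Adra2c, an inhibitory receptor coupled to Gi, fell from 29.1 ± 5.35 to 6.93 ± 5.10 (-2.15, limma adjusted p = 0.0272), a call lost without ICI-myocarditis 1 or 2 or controls 1 or 3 (adjusted p 0.0729 to 0.0826) and with library size scaling (0.0553). Adra2c passed the filter on low values through the controls, since ICI-myocarditis 1 and 2 held 2.05 and 6.52 normalized counts. Adra2b, of the same class, was at 91.7 ± 43.1 in controls and 42.3 ± 13.6 in ICI-myocarditis (-1.05, limma adjusted p = 0.127). Adrb3 and Adra2a did not reach the filter. Of the markers of sympathetic nerves, Th is listed at 0 in all 7 libraries, as are the red blood cell genes Hba-a1, Hba-a2 and Hbb-b1 although Alas2 of the same cells had 714 to 1733 normalized counts, so such a 0 is not read as lack of expression. Dbh, which encodes the enzyme that makes noradrenaline, had 166, 128, 167 and 163 normalized counts in controls and 74.7, 125 and 9.17 in ICI-myocarditis. Slc22a3, an extraneuronal transporter that removes catecholamines, fell from 251 ± 93.3 to 40.3 ± 31.0 (-3.09, limma adjusted p = 0.0234), but the call was lost without control 1 or control 3 (adjusted p 0.0676 and 0.0680). It was also the only listed gene still called lower after scaling to cardiomyocyte markers (-2.33).

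Among receptor kinases and arrestins 1 of 7 was called: Arrb2, a beta-arrestin, rose (493 ± 269 to 2000 ± 440 normalized counts, a log2 fold change of 2.13, limma adjusted p = 0.00643). Of 16 G protein subunits and RGS proteins, 3 were called lower. They were the inhibitory subunit Gnai1 (-1.07) and the GTPase activators Rgs4 (-1.09) and Rgs5 (-1.48), the last also among the pericyte markers. The Gnai1 call was lost without ICI-myocarditis 2 or 3 or control 3 (limma adjusted p 0.0566 to 0.0640) and with library size scaling (0.0551). Downstream of Gq, where the alpha-1 receptors act, 4 of 11 were called, beside 15.7% of all genes. Plcb2 (1.89) and Prkcd (1.48) were higher, and Plcb4 (-1.02) and Prkd1 (-1.57) were lower. Calls were lost for Plcb2 without ICI-myocarditis 3 (limma adjusted p = 0.0576) and for Prkcd without ICI-myocarditis 3 or controls 1 or 3 (0.0527 to 0.0686). That of Plcb4 was lost without any 1 of the ICI-myocarditis libraries or control 3 (limma adjusted p 0.0501 to 0.0861) and with library size scaling (0.0985).

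Of the 7 other cyclases tested, only Adcy7 was called. Its level, 1217 ± 605 in controls, was 4710 ± 1653 in ICI-myocarditis (2.02 on the log2 scale, limma adjusted p = 0.00892). Relative to Adcy6 it went from 0.132 ± 0.0746 to 0.745 ± 0.363 with no overlap. Every ICI-myocarditis library was above every control for Adcy7 and below every control for Adcy6, so this ratio could not overlap. Per kb Adcy7 reached 700 ± 245 in ICI-myocarditis, above Adcy5 in all 3 libraries. Adcy1 (-1.51), Adcy8 (-1.81), Adcy4 (-0.70), Adcy9 (-0.57), Adcy2 (0.38) and Adcy3 (0.38) did not pass, and Adcy10 did not reach the filter. The 12 other anchoring proteins tested held 0 calls, and the abundant Akap6 had a log2 fold change of -0.43 (limma adjusted p = 0.354). Whether Akap5 differs from the other anchoring proteins was not tested.

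Among 16 other phosphodiesterases, Pde3b rose (351 ± 44.7 to 624 ± 87.6, log2 fold change 0.83, limma adjusted p = 0.0225) and Pde2a fell (3480 ± 1038 to 1769 ± 384, -0.95, limma adjusted p = 0.0411). Pde3b over Pde3a was 0.110 ± 0.0356 in controls and 0.313 ± 0.109 in ICI-myocarditis, with no overlap. Pde3b alone already separated the groups, so the ratio is not a further result. The Pde2a call was lost without any 1 of ICI-myocarditis 1, 2 or 3 or controls 1, 2 or 3 (limma adjusted p 0.0531 to 0.162) and with library size scaling (0.125). The Pde3b call was lost without ICI-myocarditis 1 or 3 or control 3 (limma adjusted p 0.0618 to 0.0972). Among PKA subunits and inhibitors 1 of 9 was called, Pkib, a peptide inhibitor of PKA (2.45). Among 7 other cAMP effectors 1 was called, the exchange factor Rapgef4, which fell (-1.32).

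Of 19 PKA substrates of the heart and their phosphatases, 18 had log2 fold changes below 0, beside 51.9% of all genes tested. Of the 19, only 1 was called, the potassium channel subunit Kcne1 (-1.07, limma adjusted p = 0.0243). That call was lost without ICI-myocarditis 2 or 3 or controls 1 or 3 (limma adjusted p 0.0679 to 0.102). Ryr2, the calcium release channel, was at -1.27 and Pln, phospholamban, at -0.80, neither called. Ryr2, Tnni3 and Mybpc3 of this list are also among the 10 cardiomyocyte markers. Of 12 CREB family and cAMP-induced genes 1 was called, Nr4a2, which rose (1.92, limma adjusted p = 0.0159) and whose call was lost without ICI-myocarditis 2 or 3 (limma adjusted p 0.0561 and 0.0753). Creb1 was at -0.25 and Fos at 1.87, neither called. Macrophage and T cell markers were higher in the same 3 libraries as Arrb2, Adcy7, Pkib, Plcb2 and Prkcd, and their part in these increases was not tested.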

How the data were processed

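Total RNA of flash-frozen ventricle was sequenced with a stranded, paired-end protocol, per the labels' protocols. Reads were aligned with STAR 2.7.3 to GRCm38 (mm10), per the submitters' processing notes; the counting program, annotation and use of strand are not given in the sources used here. The per-library values are a signal the authors deposited, read counts divided by size factors. The deposited table also holds the authors' log2 fold change with its error, a score (their test statistic), and a p-value before and after adjustment. Whole reads were recovered for 100% of values (tolerance 0.1); control 1, with 1 read worth 1.01, is a weaker case. The 27 rows with date-like names (0.143% of reads) were left out.

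The 15236 genes reaching 10 normalized counts in 3 or more libraries were tested with limma 3.58.1 (R 4.3.3; trend, robust) on log2(value + 1), which understates the change of low genes, with Benjamini-Hochberg adjustment over all and a threshold of 0.05. edgeR 4.0.16 and DESeq2 1.42.0 on recovered reads, other scalings, filters, pseudocounts, a replicate block and leaving out each library were alternatives; the tests were checked on simulated counts. The 8 genes and all lists were chosen with earlier results of these data known, and 2 genes of the lists are not reported here. Genes named outside the 8 are the called genes of each list, the other listed adrenergic receptors and cyclases, the most abundant gene of a list with no call (Akap6), the 2 genes nearest each of the 8 and the markers; Ryr2, Pln, Creb1 and Fos were chosen after their values were seen. Without molecular identifiers, reads are not independent molecules, and p-values measure the spread between these animals' libraries only. Gene positions and exon lengths are from GENCODE M21 (GRCm38), promoters from RefSeq (GRCm38.p6).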

Additional observations from a re-analysis of the deposited data

How the results depend on the processing

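The 8 genes all stayed below 0 in 17 of 18 alternatives, some of which cannot move a fold change. Adrb1 was at only -0.0034 without ICI-myocarditis 3. In the scaling to cardiomyocyte markers the median log2 fold change of the 8 genes was 0.12 (-0.68 as reported). Of the other pathway genes, 14 were called higher (7 as reported) and 1 lower (11 as reported). Among all genes, 2712 were called higher (1783 as reported) and 44 lower (609 as reported), with a median of 0.77 (-0.02 as reported). The median of all listed genes was 0.55 (-0.25 as reported). Among the 8 genes, the signs reversed for Adrb1 (0.53), Adcy5 (0.45), Adcy6 (0.27), Pde3a (0.12) and Pde4d (0.13). Among the other pathway genes named, they reversed for Adcy4 (0.10), Adcy9 (0.23), Akap6 (0.37), Mybpc3 (0.09) and Creb1 (0.55). That scaling raises every library with little marker signal by construction. Pathway genes called lower numbered 27 with DESeq2 and 7 with library size scaling, which moved the median of all genes to 0.13; the cause was not tested. Leaving out 1 library gave 983 (without ICI-myocarditis 3) to 3333 (without control 2) called genes in place of 2392. The pathway genes called higher then ranged from 3 (without ICI-myocarditis 3) to 10 (without control 2), and those called lower from 5 (without control 3) to 16 (without control 2 or control 4). Among the 8, 0 (cardiomyocyte marker scaling) to 4 (without control 2) were called lower. The replicate block gave 1777 called genes, 7 pathway genes higher and 11 lower, and a median of -0.53 for the 8 genes. Control 4 is alone in its block and adds nothing to these fold changes, so the median equals that without control 4. With the block, the calls of Adra1a, Adra1d (limma adjusted p = 0.0691), Gnai1 (0.0891), Kcne1 (0.0619) and Pde3b (0.125) were lost. The counts therefore do not cover the same genes as reported. Same-numbered libraries deviated with correlations of -0.27, -0.21 and -0.08, and no ICI-myocarditis library correlated best with its own number. These values show no pairing by number, but they come from few libraries, and a shared litter or batch was not tested. The lowest library of the 8 genes held 45 reads (Akap5), and an effect of depth was not tested.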
